A study of Mus musculus with 6 samples.

Results

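Growth factors are secreted proteins through which the cells of a tissue act on each other's growth, survival and differentiation. Fibroblast growth factors, VEGF, PDGF, insulin-like growth factors and EGF receptor ligands act on receptor tyrosine kinases. TGF-beta, activins and BMPs act on paired serine/threonine kinase receptors that phosphorylate Smad proteins, and Wnt proteins act on Frizzled receptors. In white fat these families are known for roles in the supply of blood vessels (VEGF), the fate of adipocyte precursors (PDGF receptors, BMP4, Wnt10b), systemic metabolism (FGF21) and the restraint of adipogenesis (TGF-beta).

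The growth factor genes were chosen by symbol: Fgf, Igfbp, Tgfb, Bmp, Gdf or Wnt followed by a digit, Vegf, Pdgf, Igf1, Igf2 or Inhb at the start, and Hbegf, Ereg, Tgfa and Pmepa1. The rule found 95 genes on 98 probes, of 13409 named genes on an array of 19200 probes. It selects by symbol alone, but it was set with earlier results of these data known. Pmepa1, which is no ligand, was included in it by name. Read by their first letters, the symbols also take in 14 genes that are neither ligands, IGF binding proteins nor PDGF receptors, such as the receptors Igf1r and Igf2r, the intracellular Fgf11 to Fgf14, the protease Bmp1 and Pmepa1 itself. Areg, Gdf15 and Inha were not analysed here.

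Epididymal fat came from male C57BL/6J mice, 12 weeks old, killed 3 hr after injection of saline or of the drug CL-316,243 at 1 mg per kg body weight. This drug activates the beta3-adrenergic receptor, which drives lipolysis in fat cells. Each treatment gave 1 pool of RNA from 6 mice, and both pools were hybridised together on each of 6 two-colour arrays. Arrays 1, 2 and 3 carried the CL-316,243 pool in channel 1, and arrays 4, 5 and 6 carried it in channel 2. All arrays therefore measured the same 2 pools, which count as 1 biological replicate: p-values cover the spread between arrays, and the spread between mice is unknown. Fewer cells of a type and less RNA per cell cannot be told apart in such pools.

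Values are log2 ratios of the pools. The sources used here do not give which pool is the numerator. "Higher" and "lower" therefore refer to whichever pool that was, and all directions turn if it was the saline pool. The log base is not stated either, and a natural log would make each log2 ratio 1.44 times as large. Empty cells stood only at the column ends, and row by row the arrays had rank correlations of -0.031 to 0.034 over probes, so each column was first placed on probe numbers by allowing for lost spots. Afterwards, the mean Spearman rho was 0.28 between arrays that shared a dye orientation and 0.11 between the others, values that the placement itself raises. The placement kept 64.9% of probes on array 2 and at least 92.2% on each other array. Gene names rest on the numbering: the ratios of 965 pairs of probes of one gene correlated at 0.083, but 1 of 20 shifted numberings reached 0.082, so that check does not single out the numbering used.

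Pmepa1 and Wnt9b were the growth factor genes that passed the test. Pmepa1, a membrane protein induced by TGF-beta that restrains Smad signalling, was 2.07-fold higher, and Wnt9b, a Wnt ligand best known from kidney development, was 1.59-fold higher. No VEGF, PDGF, FGF, IGF, TGF-beta, activin or BMP ligand passed. Of the 87 genes that could be tested, 2 were higher (2.3%) and 0 lower at a limma adjusted p under 0.05. Over all 12934 genes tested, 3.02% passed, 1.88% higher and 1.14% lower, so at this threshold the share among growth factor genes, on 2 calls, was near the background. Without Pmepa1 and the other genes that are no ligand, binding protein or PDGF receptor, 1 of 75 passed. Without adjustment, 7 of the 87 had a limma p under 0.05, 5 with a positive and 2 with a negative ratio. That was a smaller share than the 18.4% of all genes. The same sign on every array with a value was found in 10.3% of the 87 and in 13.9% of all genes. The other 8 of the 95, among them Pdgfb, Wnt5b and Wnt11, had too few placed values for the test, which asked for 2 arrays in each dye orientation. Values on all 6 arrays were there for 39 of the 87 genes and for 7907 of all 12934. The number of values bears on both the p-value and a common sign, so the shares above are not like for like.

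As a group the growth factor genes lay close to 0. Their median log2 ratio was 0.026, against -0.013 over all genes, and the median size of the ratio was 0.12 against 0.14. Of the 87 ratios 83 lay within 0.5 log2 units of 0, 49 were positive and 38 negative. For 67 genes the 95% interval of the ratio lay within 1.5-fold in either direction, and for 84 within 2-fold. These intervals cover the spread between arrays of the same 2 pools only. A mean of 1.5-fold or more in size, with no array of opposite sign, was found in 2 growth factor genes, again Pmepa1 and Wnt9b, and in 3.31% of all genes.

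**Figure D1:**
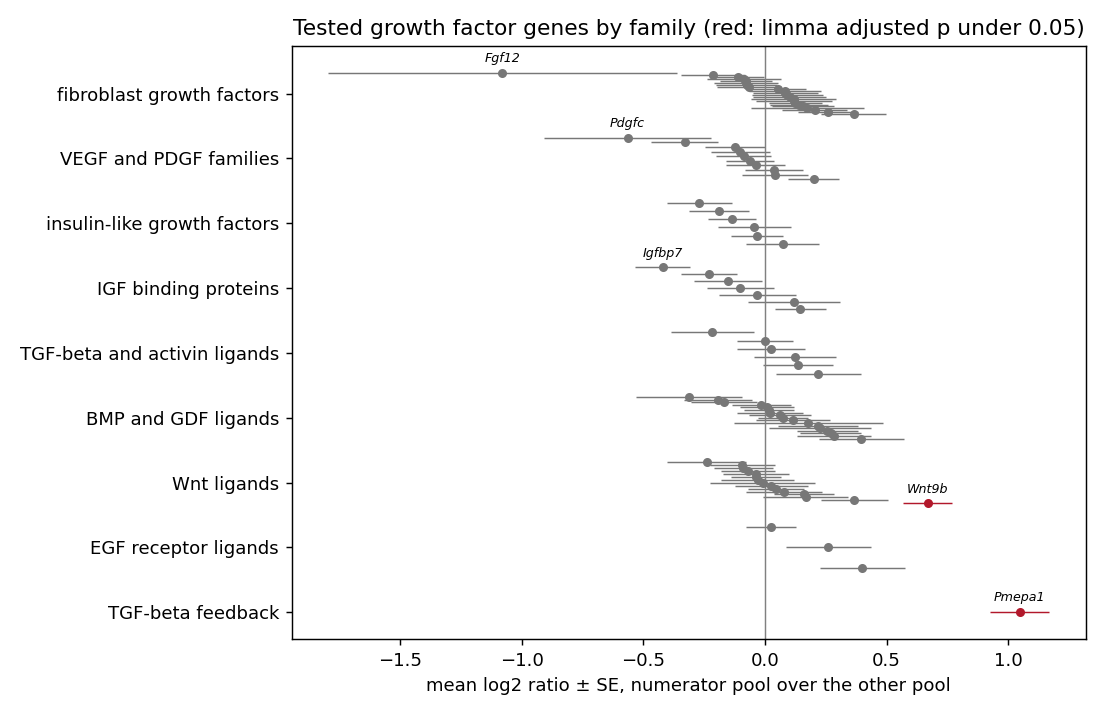
Mean log2 ratio (horizontal axis, numerator pool over the other pool) with its standard error for the 87 tested growth factor genes, 1 point per gene, grouped by family. Pmepa1 at 1.05 and Wnt9b at 0.67, in red, passed the test, and Fgf12 at -1.08 has the widest error.

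On arrays 1 to 6 the log2 ratio of Pmepa1 was 1.16, 1.47, 0.84, 1.08, 1.13 and 0.61. Every array was above 0, and the ranges of the orientations overlapped. The mean was 1.05 ± 0.12 (SE, n = 6 arrays; 95% interval 0.77 to 1.32; limma adjusted p = 0.0026). Pmepa1 has 2 probes. Each was positive on all 6 arrays, with means of 0.98 ± 0.17 and 1.11 ± 0.11 (SE, n = 6 arrays; limma adjusted p over 18621 probes of 0.014 and 0.00085).

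The log2 ratio of Wnt9b was 0.94, 0.85 and 0.58 on arrays 1 to 3 and 0.46, 0.58 and 0.60 on arrays 4 to 6. All were above 0, and the highest 2 came from arrays with the CL-316,243 pool in channel 1. The mean was 0.67 ± 0.10 (SE, n = 6 arrays; 95% interval 0.44 to 0.90; limma adjusted p = 0.0085). Wnt9b was read from 1 probe. Without array 5 its mean was 0.66 with an adjusted p of 0.057, which missed the threshold of 0.05.

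Since the placement favours agreement between arrays, it was repeated with the growth factor probes carrying no information. Pmepa1 then had a mean of 1.05 (limma adjusted p = 0.0028) and Wnt9b one of 0.67 (adjusted p = 0.0088). With the rows read as deposited, without placement, Pmepa1 was at 0.12 and Wnt9b at 0.17, and 0 of the genes on the array passed.

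**Figure D2:**
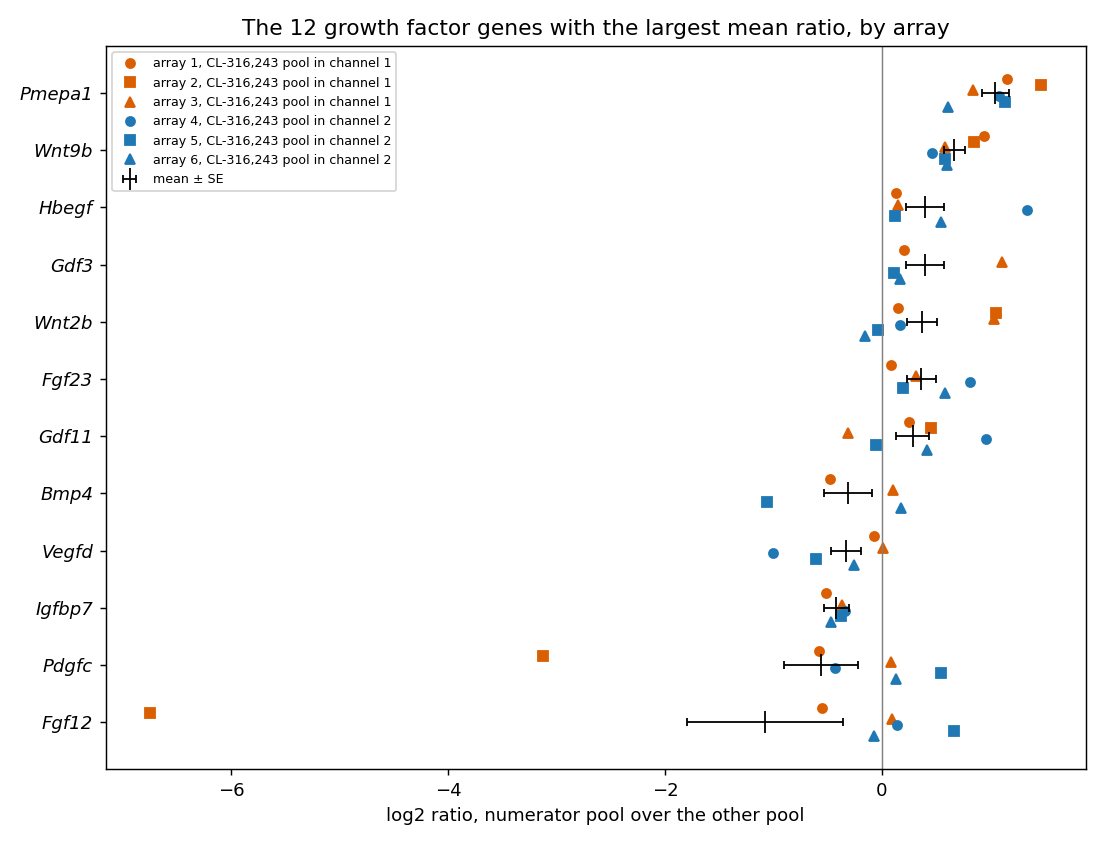
Log2 ratio on each array (horizontal axis) of the 12 growth factor genes with the largest mean ratio in size. Colour gives the dye orientation, shape the array, and the black cross the mean with its standard error. All points of Pmepa1 and Wnt9b lie right of 0, whereas the means of Fgf12 and Pdgfc are drawn to the left by array 2 alone.

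Among the genes of the VEGF and PDGF families, PDGF receptors and the receptor-like Pdgfrl included, 0 of 10 tested passed. The 3 positive ratios were those of Vegfa, Vegfc and the receptor Pdgfrb, and the family median was -0.073. Vegfa, the main angiogenic factor of fat, had log2 ratios of 0.82, 0.57 and 0.12 on arrays 1 to 3 and -0.25, -0.45 and -0.59 on arrays 4 to 6. The signs followed the dye orientation, with no overlap between the orientations. The mean was 0.036 ± 0.12 (SE, n = 6 arrays), with a 95% interval of -0.23 to 0.30. The orientation term of Vegfa had an unadjusted limma p of 0.0032 and an adjusted p of 0.39. Vegfb, known for its link to fatty acid uptake, was at -0.038 ± 0.12 and Vegfc, a lymphatic factor, at 0.042 ± 0.14. Vegfd, also a lymphatic factor, was at -0.33 ± 0.14 over 5 arrays (adjusted p = 0.25), with its lowest value, -1.01, on array 4.

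Of the PDGF chains, Pdgfa was at -0.10 ± 0.12 and Pdgfd at -0.060 ± 0.10. Pdgfc had a mean of -0.56 ± 0.34, but array 2 read -3.12 while the others ran from -0.58 to 0.55. Without array 2 its mean was -0.085. The receptors Pdgfra, a marker of adipocyte precursors, and Pdgfrb, a marker of mural cells, were at -0.12 ± 0.12 and 0.20 ± 0.10. Pdgfrb was positive on 5 of 6 arrays, and neither receptor passed (adjusted p = 0.66 and 0.35).

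Of the 22 fibroblast growth factor genes tested, 14 had a positive ratio, and their median was 0.089. Fgf21, a hormone made by liver and stimulated fat, had log2 ratios of -0.042 and -0.090 on arrays 1 and 3 and 0.051, 0.38 and 0.080 on arrays 4 to 6. Its mean of 0.053 ± 0.12 (SE, n = 5 arrays) had a 95% interval of -0.22 to 0.32. Fgf1, a paracrine factor tied to remodelling of fat, was at 0.093 ± 0.15, Fgf2 at 0.084 ± 0.13, and Fgf7 and Fgf10, which act on epithelium, at 0.12 ± 0.11 and 0.083 ± 0.15. Fgf23, a phosphate-regulating hormone of bone, was positive on all 5 arrays that had a value (0.084 to 0.81, mean 0.36 ± 0.13, adjusted p = 0.19). Fgf12, an intracellular member that binds sodium channels, had the largest ratio in size, -1.08 ± 0.72, of which array 2 gave -6.75. The other 5 arrays ran from -0.55 to 0.66, and without array 2 the mean was 0.0064.

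In the insulin-like growth factor system, Igf1 had log2 ratios of -0.53, -0.33, -0.0022 and -0.21 on the 4 arrays with a value (arrays 1, 3, 5 and 6). All were below 0, with a mean of -0.27 ± 0.13 (adjusted p = 0.34). Igf2 was at -0.19 ± 0.12 and the receptor Igf1r at -0.14 ± 0.10. The probes of Igf1r differed, at -0.40 ± 0.14 and 0.059 ± 0.12. Of the 7 IGF binding proteins, 5 had a negative ratio and 0 passed. Igfbp7, a secreted protein of vessel walls, was at -0.52, -0.37, -0.34, -0.37 and -0.47 on arrays 1, 3, 4, 5 and 6. All were below 0, but the mean of -0.42 ± 0.11 had an adjusted p of 0.093. Igfbp3, Igfbp5 and Igfbp6 were at -0.10 ± 0.14, -0.15 ± 0.14 and -0.031 ± 0.16. Igfbp4 was positive on arrays 1 and 3 (0.045 and 1.42) and negative on arrays 4 to 6 (-0.59 to -0.43), with a mean of 0.12 ± 0.19.

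The TGF-beta ligands, which signal through Tgfbr2 and Tgfbr1, gave means of 0.026 ± 0.14 for Tgfb1, 0.14 ± 0.14 for Tgfb2 and 0.22 ± 0.17 for Tgfb3. Tgfb1 ran from -0.40 to 0.46 over 6 arrays with 2 values above and 4 below 0. The activin chains Inhba and Inhbb, the latter made by adipocytes, were at -0.22 ± 0.17 and 0.12 ± 0.17. Among 17 BMP and GDF genes 13 had a positive ratio, with a median of 0.073, and 0 passed. Bmp2, a bone morphogenetic protein, was positive on all 5 arrays with a value (0.026 to 0.50, mean 0.27 ± 0.13, adjusted p = 0.30). Bmp4, which commits precursors to the adipocyte lineage, ran from -1.06 to 0.18 over 4 arrays, with a mean of -0.31 ± 0.22. Bmp7 and Bmp8b, both known for roles in brown fat thermogenesis, were at 0.26 ± 0.12 and 0.22 ± 0.16. Gdf3, a ligand of fat that acts through activin receptors, was at 0.40 ± 0.17 over 4 arrays, 1 of which read 1.11. Gdf11 was at 0.29 ± 0.15.

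Of 15 Wnt ligands tested, 7 had a positive and 8 a negative ratio, and Wnt9b was the only one that passed. Wnt10b, an inhibitor of adipogenesis, was negative on arrays 1 and 3 (-0.48 and -0.32) and positive on arrays 4 to 6 (1.21, 0.94 and 0.049), with a mean of 0.17 ± 0.18. Wnt5a was at 0.16 ± 0.12. Wnt2b was at 1.06 and 1.04 on arrays 2 and 3 and between -0.16 and 0.16 on the others, with a mean of 0.37 ± 0.14 (adjusted p = 0.20). Among the EGF receptor ligands, Hbegf, the heparin-binding member, was positive on all 5 arrays with a value. It read 1.33 on array 4 and 0.12 to 0.54 elsewhere, and its mean of 0.40 ± 0.18 had an adjusted p of 0.27. Ereg was at 0.26 ± 0.17 and Tgfa at 0.025 ± 0.10.

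The dye orientations were set against each other because the signs of some growth factor genes, Vegfa among them, split by orientation. In 12 of 87 genes (13.8%) all arrays of one orientation had the opposite sign to all arrays of the other, against 7% of all genes. These shares are not like for like, because a full split is easier to reach with fewer values. Values on all 6 arrays were there for 39 of the 87 and for 7907 of the 12934 genes tested. The 12 genes were Fgf5, Fgf6, Fgf9, Fgf21, Tgfb3, Wnt1, Wnt7a, Wnt10b, Igfbp4, Pdgfd, Vegfa and the antisense transcript Igf2os. The orientation term passed a limma adjusted p under 0.05 in 0 growth factor genes and in 0.00773% of all genes, and had an unadjusted p under 0.05 in 13 and in 10.5%. Fgf9, for example, read -0.40 and -0.26 on arrays 1 and 3 and 0.81, 1.11 and 0.63 on arrays 4 to 6.

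**Figure D3:**
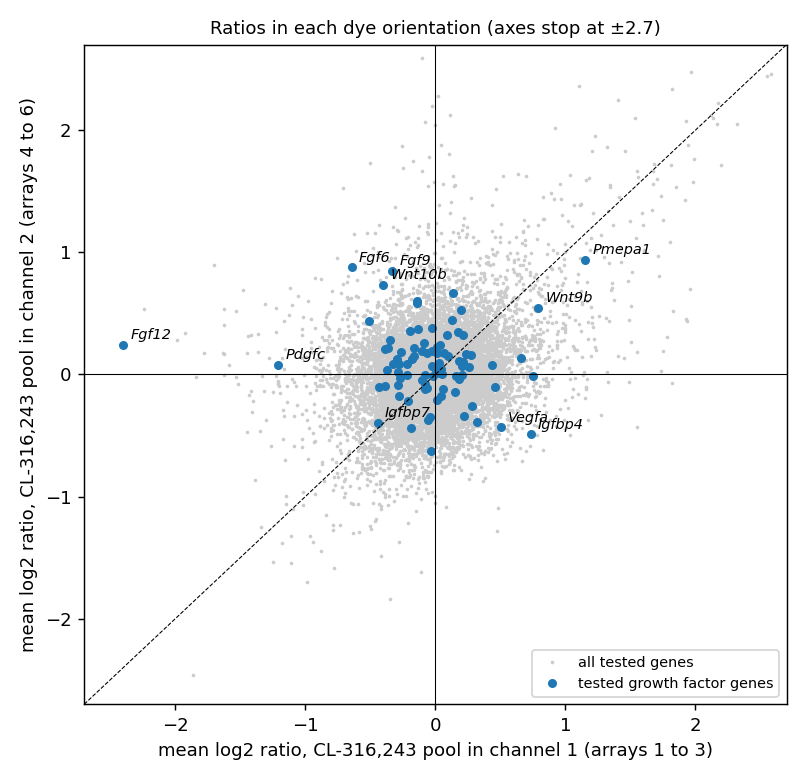
Mean log2 ratio with the CL-316,243 pool in channel 1 (horizontal axis) and in channel 2 (vertical axis) for all tested genes (grey) and the tested growth factor genes (blue). The dashed line marks equal means, and genes beyond the axes are not drawn. Pmepa1 (1.15 and 0.94) and Wnt9b (0.79 and 0.55) lie in the upper right, Vegfa and Igfbp4 in the lower right, and Fgf6, Fgf9 and Wnt10b in the upper left.

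Other genes of the same pathways were taken from lists of receptors, inhibitors, intracellular mediators and target genes. The lists were chosen with earlier results of these data known, so their counts are description only. Of 32 receptors tested, 1 was higher and 2 lower, with a list median of 0.031 (3.02% of all genes passed). Klb, the beta-Klotho coreceptor of FGF21, had log2 ratios of 0.84, 1.47, 1.06, 0.28, 1.05 and 0.44, all above 0, with a mean of 0.86 ± 0.13 (limma adjusted p = 0.010). Tgfbr2, the receptor that binds TGF-beta first, read -0.50, -0.66, -0.30, -0.87, -0.52 and -0.55, all below 0, with a mean of -0.57 ± 0.11 (adjusted p = 0.021). Its partner Tgfbr1 was at 0.12 ± 0.12. Nrp1, a coreceptor of VEGF, read -0.50, -0.64, -0.61, -0.51, -0.60 and -0.20, with a mean of -0.51 ± 0.10 (adjusted p = 0.030). The VEGF receptor Kdr was at 0.12 ± 0.14.

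The calls of Tgfbr2 and Nrp1 were lost without single arrays: each passed in 1 of the 6 fits that left out 1 array, with means of -0.61 to -0.51 for Tgfbr2 (adjusted p = 0.029 to 0.092) and -0.57 to -0.47 for Nrp1 (adjusted p = 0.042 to 0.14). Klb passed in 5 of those 6 and had an adjusted p of 0.053 without array 5 and of 0.12 without arrays 2 and 3. With the CL-316,243 pool in channel 1 alone Klb was at 1.13 ± 0.18 (adjusted p = 0.061). In channel 2 alone it was at 0.59 ± 0.18 (adjusted p = 0.14), and with rows as deposited at 0.044 ± 0.16. Klb passed in none of these settings, and neither did Tgfbr2 or Nrp1.

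Of 17 target genes, 2 were higher and 0 lower, against 1.88% and 1.14% of all genes, with a list median of -0.031. Id3, a target of BMP signalling, read 1.79, 1.07, 0.67, 0.92 and 1.16 on arrays 1, 3, 4, 5 and 6, with a mean of 1.17 ± 0.15 (adjusted p = 0.0052). Skil, a TGF-beta target that represses Smad proteins, read 0.39, 0.92, 0.70, 0.84, 0.74 and 1.10, with a mean of 0.78 ± 0.11 (adjusted p = 0.0066). Both were above 0 on every array with a value and passed in all 6 fits that left out 1 array. Skil did not pass with placement on absolute values (0.57 ± 0.25, adjusted p = 0.31), without arrays 2 and 3 (0.64 ± 0.15, adjusted p = 0.098) or with the CL-316,243 pool in channel 1 alone (0.67 ± 0.17, adjusted p = 0.21). Id3 did not pass in channel 1 alone (1.43 ± 0.25, adjusted p = 0.092), and neither passed with rows as deposited. Id1, chosen for naming after its values were seen, was also positive on all 5 arrays but missed the threshold (0.50 ± 0.11, adjusted p = 0.062). Id4 and Tgif1 of the same list were negative on all 5 arrays with a value and missed it too. Their means were -0.51 ± 0.15 and -0.42 ± 0.16 (adjusted p = 0.11 and 0.22). Of the 17 target genes, 8 had a positive ratio. Of 34 inhibitors and binding proteins and 20 intracellular mediators 0 passed, with medians of -0.038 and 0.037.

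**Figure D4:**
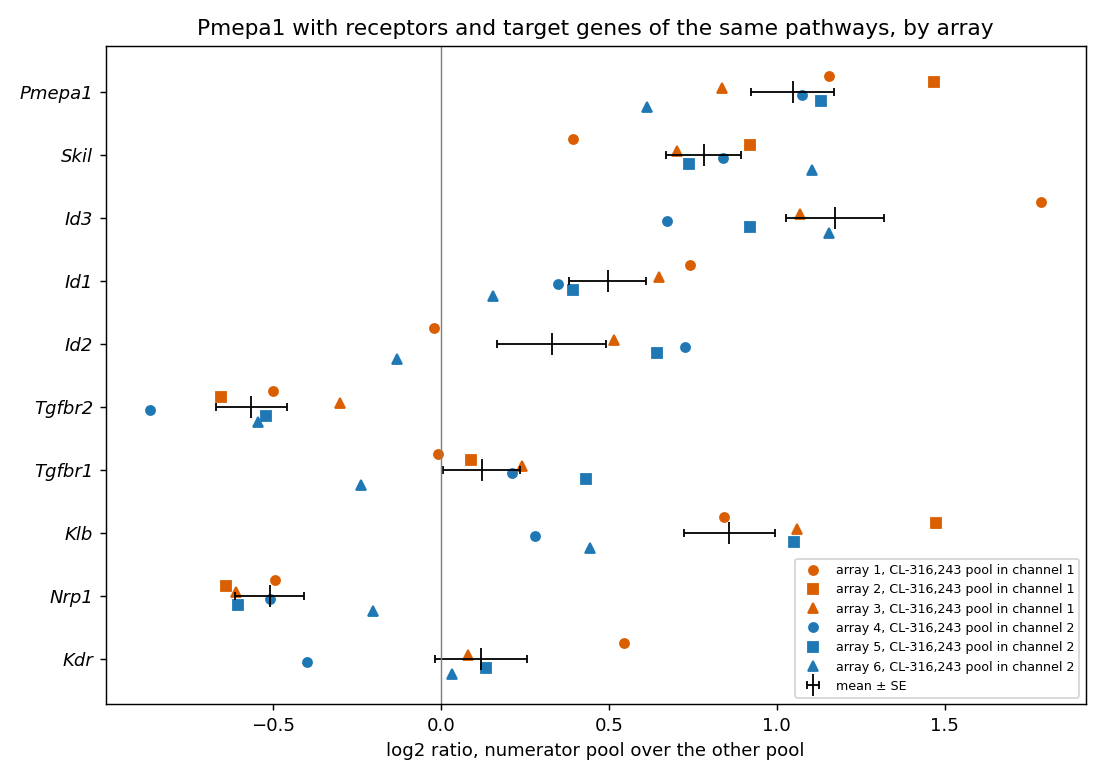
Log2 ratio on each array (horizontal axis) of Pmepa1 and 9 receptors and target genes, with the mean and its standard error as a black cross. Pmepa1, Skil, Id3 and Klb lie right of 0 and Tgfbr2 and Nrp1 left of 0 on every array with a value. Id1, Id2, Tgfbr1 and Kdr did not pass and were chosen for display after their values were seen. The target genes Id4 and Tgif1, below 0 on every array with a value, are not drawn.

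The cell makeup of the pools was read from marker lists (3.02% of all genes passed). Of 8 seminal vesicle and epididymis markers, 5 were lower and 1 higher. The lower ones were Svs2, Svs4, Svs5, Svs6 and Pate4, and the higher one was Serpina1f. Lcn5 (0.11 ± 0.18) and Defb1 (-0.0015 ± 0.15) were near 0. The 8 ratios ranged from -5.47 for Svs5 to 4.68 for Serpina1f, so the list median of -1.66 joins large ratios of both signs. Of 8 smooth muscle and pericyte markers, 3 were higher (Cnn1 1.26 ± 0.27, Des 0.90 ± 0.12 and Acta2 0.70 ± 0.11), with a list median of 0.31. In that list 7 of 8 ratios were positive, those of Myh11 (0.063 ± 0.12) and Cspg4 (0.012 ± 0.12) near 0. Rgs5 was at -0.45 ± 0.13 and below 0 on 5 of 6 arrays (limma adjusted p = 0.10). Of 8 endothelial markers 1 was higher (Cldn5, 0.75 ± 0.12), and the list median was -0.17. The other endothelial markers had negative ratios, the lowest that of Tek (-0.51 ± 0.12, limma adjusted p = 0.070). In the adipocyte list (10 tested, median 0.28), the macrophage list (7 tested, median -0.13) and the fibroblast and mesothelial list (7 tested, median 0.050), 0 passed. Ratios between pools give no level per gene, so the presence of a cell type could not be read from its markers. The part of these markers in the ratios of Pmepa1, Wnt9b, Id3 and the receptors was not tested.

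Promoters were read from RefSeq for 69 of the 95 growth factor genes, 85 promoters in all, each from 250 bases before to 50 after a transcript start. The cAMP response element TGACGTCA, searched on both strands because the beta3-adrenergic receptor raises cAMP, was found in 0 of them and in 1.79% of 32851 promoters of the genome. Its half-site TGACG, which every full element contains, was in 18 of 85 (21.2%), Vegfa, Fgf21 and Wnt10b included, against 20.8% of all promoters. The palindrome GTCTAGAC, bound by Smad proteins, was in 0 of 85 and in 0.213% of all. Pmepa1 was not among the 69 genes with a promoter, so these counts do not cover it. The promoter of Wnt9b is shown because it is the ligand that passed. It lies on the minus strand at chr11:103749822-103750071 (RefSeq, GRCm38.p6), covers the 250 bases before the start, is 72.0% G or C, and holds none of these motifs.
Wnt9b promoter: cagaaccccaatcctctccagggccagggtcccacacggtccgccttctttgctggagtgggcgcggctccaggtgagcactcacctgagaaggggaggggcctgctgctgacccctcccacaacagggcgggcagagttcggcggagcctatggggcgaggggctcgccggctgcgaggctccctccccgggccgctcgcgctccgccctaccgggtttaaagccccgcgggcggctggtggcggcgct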

How the data were processed

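The authors deposited normalized log2 ratios of both channels (base taken as 2) for 6 arrays, quantified with QuantArray 3.0 after scaling between Cy5 and Cy3 and LOWESS, per the labels. The sources used here do not give the background correction or why spots were dropped, and no intensities were used, so signal over background is unknown and the number of arrays limits precision. Column medians lay between -0.015 and 0.0059.

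Columns were empty only in their last 29, 724, 38, 169, 8 and 1 rows. A hidden Markov model that lets spots drop out of a column, but not enter it, placed each on probe numbers 1 to 19200, and positions with a posterior of at least 0.95 were kept (98.2%, 64.9%, 97.1%, 92.2%, 99.7% and 99.8% of probes). The planned predictor, the mean of the other arrays, gained little on array 2. A regression on each other array replaced it after the data were seen, and the planned form became an alternative. Because it maximises likeness between arrays, the placement inflates that likeness.

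Probe names came from the platform annotation: 14711 probes have 1 symbol, 6 several (not named) and 4483 are unnamed here; 14416 Entrez identifiers matched RefSeq, and 0 symbols changed. Gene values are means of a gene's probes. Genes with at least 2 values per orientation were fitted with limma 3.58.1 (R 4.3.3; lmFit, eBayes) with dye orientation as plus or minus 1, with Benjamini-Hochberg adjustment over 12934 genes. The adjusted p-values named in the text are from this fit. Script and placement were also run on simulated data. The simulated arrays were given correlations near those found after placement, so that run cannot test whether the deposited columns were placed rightly. Named were genes that passed or met the 1.5-fold rule, the 12 with the largest ratios, a list of well-known growth factors, and pathway and marker genes that passed. The growth factor genes, rules and lists were chosen with earlier results of these data known. Alternatives were other placements, scalings, filters and fits, and leaving out arrays.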

Additional observations from a re-analysis of the deposited data

Results flagged for a closer look

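Of 44 named growth factor genes examined for a single array far from the rest (Dixon's criterion at 95%), 6 stood out. The criterion flags about 1 in 20 by chance, but the named genes include the 12 with the largest mean ratios. That choice favours genes with a single far array. The share flagged over all genes was not computed, so the 6 have no background. Array 2 read -6.75 for Fgf12, against -0.55 to 0.66 on the other 5 arrays, and -3.12 for Pdgfc, against -0.58 to 0.55. Array 3 read 1.11 for Gdf3, against 0.11 to 0.21 on 3 other arrays, and -0.55 for Inhbb, against 0.29 to 0.45. Array 1 read 0.20 for Igfbp3, against -0.25 to -0.17, and -0.64 for Igfbp5, against -0.098 to 0.10. Arrays 2 and 3 were those on which the placement gained least in log-likelihood (672 and 900, against 1769 to 3188 on the others), and array 2 had the widest spread of ratios (SD 0.79, against 0.42 to 0.57). The part of the placement in these values was not tested.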

How the results depend on the processing

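Of 24 alternatives, 22 refitted the genes and gave 1010 values of named genes. Among these, 39 lost a call and kept their sign, 2 gained a call, and 72 changed sign. Of the 72, 71 were of genes past the threshold in neither fit, and 1, Nrp1 with rows as deposited, also lost its call. Apart from the rows as deposited, Pmepa1 kept a ratio of 0.94 to 1.15 and passed in 20 of 21 fits (limma adjusted p = 0.0016 to 0.057), and Wnt9b kept 0.55 to 0.79 and passed in 18 of 21 (adjusted p = 0.0054 to 0.12). With rows as deposited, 0 growth factor genes were higher, 0 met the 1.5-fold rule, 0 of all genes passed, and Nrp1 turned from -0.51 to 0.23; this setting sets unlike probes side by side if spots were lost. With the CL-316,243 pool in channel 1 alone, 0 of 88 tested growth factor genes were higher and 6 met the 1.5-fold rule. In that fit 36 of 12956 genes passed in either direction. In channel 2 alone, 3 of 94 were higher (Fgf6, Fgf9 and Pmepa1) and 6 met the 1.5-fold rule. There 200 of 13387 genes passed in either direction. Fgf6 and Fgf9 are among the growth factor genes whose signs split by orientation. Each single-orientation fit had 3 arrays at most, and fewer arrays make a common sign easier to reach. The share of all genes that met the 1.5-fold rule was computed for the main fit only, so the counts of 6 have no background. Robust regression called 3 of 87 higher, Wnt2b added (0.44, adjusted p = 0.048), and 1 lower (Igfbp7, -0.42, adjusted p = 0.033). It called 986 of 12934 genes in either direction. Without the genes that are no ligand, binding protein or PDGF receptor, 1 was higher and 1 met the 1.5-fold rule, of 75 tested; 1 met a 2-fold rule. Leaving out 1 array gave 1 to 2 higher, 0 lower and 2 to 3 by the 1.5-fold rule; the call lost was that of Wnt9b without array 5 (adjusted p = 0.057). Calls over all genes, 391 in all, moved to 986 with robust regression, 224 with placement on absolute values, 36 and 200 in single orientations, 152, 205 and 129 without array 1, 4 or 5, and 188 without arrays 2 and 3, the last chosen, like the planned placement (387), after seeing the data. The cause of these shifts was not tested. No paired analysis was possible because the groups here, the dye orientations, share no array numbers; each array is itself a comparison of both pools.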
